A study of Arabidopsis thaliana with 12 samples.

Results

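The TEs examined here are the transposable elements whose identifiers run from AT4TE06500 to AT4TE29000. The identifiers number the TEs along chromosome 4 of *Arabidopsis thaliana*, and this stretch of numbers spans the centromere. It holds 2890 of the 31189 TEs counted in the series, from AT4TE06500 to AT4TE28980, and its members were taken by number, whatever their expression. The region itself was chosen with earlier results of these data known. Their counts come from 12 mRNA libraries of 14-day-old seedlings, 3 for each of 4 genotypes, each made from 500 ng of total RNA of a single seedling with a stranded mRNA kit.

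All plants were in the Col-0 background. The genotypes were Col-0 (wild type), *cdca7α cdca7β* (CRISPR-Cas9 mutations in both class I *CDCA7* genes), *h1.1 h1.2* (loss of these linker histone genes) and the quadruple mutant *h1.1 h1.2 cdca7α cdca7β*. For 9 of the 12 libraries sample titles and table names disagree on the genotype, so the libraries are called here by sets of 3. Set A was titled *cdca7α cdca7β* and its tables are named for Col-0. Set B was titled Col-0 and its tables are named for *h1.1 h1.2*. Set C was titled *h1.1 h1.2* and its tables are named for *cdca7α cdca7β*. Set D was the quadruple mutant under both names. The genotype field of the sample records reads Col-0 for all 12 libraries and separates no set. Titles were taken as the genotypes, each comparison is also given as the table names would have it, and no library was reassigned.

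TEs are mobile or formerly mobile sequences that in *Arabidopsis* are packed most densely around the centromeres, in heterochromatin that carries DNA methylation, histone H3 lysine 9 methylation and linker histone H1. Methylation at CG sites is copied after replication by the methyltransferase MET1 with the VIM proteins, and the remodeler DDM1 gives these enzymes access to nucleosomes that hold H1. CDCA7 proteins bind hemimethylated DNA and are partners of the DDM1 family, and TEs that lose CG methylation can be transcribed.

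Positions and families of the TEs were not used here. Some TEs could nevertheless be placed, because their count equalled that of an annotated gene in each of the 12 libraries. Among TEs with at least 15 counts this held for 4 TEs of the region, and each of the 4 genes is a pseudogene in the TAIR10.1 annotation of chromosome 4. AT4TE15820 had the counts of AT4G06566 (3503598 to 3508199), AT4TE19395 those of AT4G07795 (4611541 to 4612782), AT4TE21110 those of AT4G08100 (5079652 to 5083590) and AT4TE21115 those of AT4G08110 (5083926 to 5086640). With 2 further chromosome 4 TEs matched in the same way outside the region, the TE numbers and the gene positions stood in the same order for 6 of 6. The start of AT4G06566 is shown because its counts came from set C alone, and that of AT4G08100 because it had counts in all 12 libraries. Each window runs from 250 bases before the annotated start to 50 bases from it, on the gene's strand, 5′ to 3′, as given by RefSeq for TAIR10.1, with every CG dinucleotide, the site that MET1 methylates, in capitals.
AT4G06566, chr4:3508150-3508449, minus strand: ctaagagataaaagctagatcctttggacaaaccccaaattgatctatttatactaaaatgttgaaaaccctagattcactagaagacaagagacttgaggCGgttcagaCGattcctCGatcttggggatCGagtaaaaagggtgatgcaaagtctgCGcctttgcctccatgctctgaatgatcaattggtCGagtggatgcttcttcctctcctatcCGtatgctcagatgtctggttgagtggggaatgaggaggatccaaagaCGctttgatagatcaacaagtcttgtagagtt
AT4G08100, chr4:5079402-5079701, plus strand: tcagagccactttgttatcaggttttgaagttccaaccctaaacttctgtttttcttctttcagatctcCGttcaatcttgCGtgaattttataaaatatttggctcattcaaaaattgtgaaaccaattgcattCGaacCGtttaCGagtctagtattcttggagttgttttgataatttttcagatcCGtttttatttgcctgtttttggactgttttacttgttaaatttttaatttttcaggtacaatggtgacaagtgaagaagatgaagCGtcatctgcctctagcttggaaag
The window of AT4G06566 holds 8 CG dinucleotides and that of AT4G08100 holds 7. Over the 5842 annotated gene starts of chromosome 4 the median was 6, and over its 835 pseudogenes it was 7. Both windows were thus close to these medians.

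Most TEs around the centromere had no counts. Of the 2890 TEs, 2597 had 0 counts over all 12 libraries and 293 (10.1%) had at least 1, against 13.6% of all TEs. Of those with counts, 88 had a single count, 117 had 2 to 9, 64 had 10 to 99 and 24 had 100 or more. The filter on low counts left 26 TEs of the region to be tested (0.900%), against 2.41% of all TEs, and 62 TEs with 10 or more counts were not tested. Together the TEs of the region had 20834 counts, 1.16% of all TE counts, and the 3 most counted TEs held 46.1% of them. Outside the region on the same chromosome, TEs with counts were more frequent, at 17.4% of the 328 TEs with lower numbers and 20.4% of the 1749 TEs with higher numbers. Reads that map to several places were not counted, so TEs with near-identical copies may have lost reads or be split between copies. Which strand was counted is not stated, so reads of a TE and of an overlapping antisense transcript cannot be told apart.

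Counts on genes and TEs were low. The libraries held 450869 to 833911 counts on genes and 115994 to 208584 on TEs, and in each library 51.5 to 72.5% of the genes were at 0. The replicates of a set were separate seedlings and no pair of libraries was identical. The genes targeted in the mutants had at most 21 counts in a library, too few to decide between titles and table names. None of 32 genes of the DNA methylation and silencing machinery passed the filter, 22 had a median of 0 counts, and the highest median was 5. In the TE tables, 99.5 to 99.6% of the reads of a library fell in lines that name no TE. The 13 photosynthesis genes used as a check of green seedling tissue were low. Of these, 11 to 13 were detected in a library, and together they took 0.0420 to 0.0764% of gene counts in 10 libraries, but 2.12% in library C1 and 0.388% in library C3, where the number is the replicate. In library C2 they took 0.0420%. C1 and C3 also had the fewest genes at 0, 51.5 and 61.6%, against 64.7 to 72.5% in the other 10 libraries. The strand option of the counting is not stated, and its part in these low values was not tested.

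Set C had more TEs of the region with counts, and a larger share of TE counts, than the other sets. The share of all TE counts from the region was 1.64, 1.68 and 1.305% in set C. It was 1.08, 0.912 and 0.999% in set A, 0.896, 1.04 and 1.0997% in set B, and 1.16, 0.985 and 1.38% in set D. Set C lay above sets A and B in every library and overlapped set D, whose highest library exceeded the lowest of set C. Wilson 95% intervals, which cover counting error only, were 1.57 to 1.71% for C1, 1.24 to 1.37% for C3 and 1.32 to 1.44% for D3. Those of C3 and D3 overlapped.

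The number of TEs of the region with a count was 123, 107 and 114 in set C. It was 61 to 69 in set A, 77 to 103 in set B and 66 to 83 in set D, so that no library of another set reached set C. C1 and C3, the highest at 123 and 114, are the libraries with the fewest genes at 0, and C2, at 107, was close to the 103 of B2. The part of C1 and C3 in this difference was not tested. As a share of all TEs detected, the region gave 6.24 to 6.48% in set C, 4.84 to 5.53% in set B, 4.61 to 5.23% in set D and 4.35 to 4.58% in set A.

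**Figure D1:**
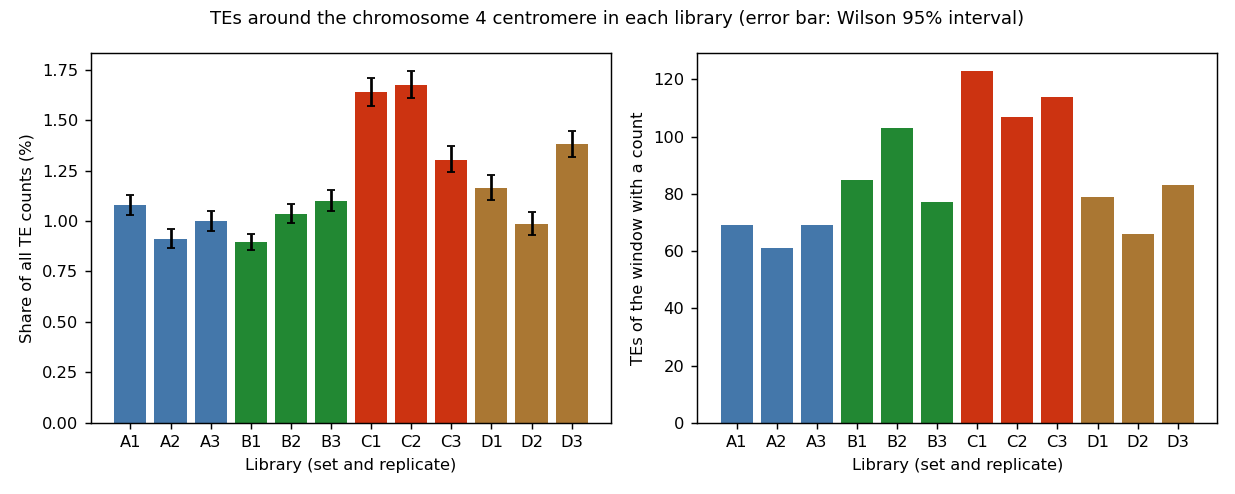
Share of all TE counts that fell on TEs around the chromosome 4 centromere (left, %, with Wilson 95% intervals) and number of these TEs with at least 1 count (right) in each of the 12 libraries, coloured by set. The libraries of set C lie at 1.305 to 1.68% and at 107 to 123 TEs, and D3, at 1.38%, is the one library of another set within the first range.

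In CPM, the counts scaled to the library size of the gene table, the region summed to 3471 ± 1051 (SD, n = 3) in set C. It summed to 2663 ± 335 in set A, 2502 ± 368 in set B and 2875 ± 371 in set D, n = 3 each. On this scale the sets overlapped, since library C3 was at 2374 CPM. The 8 TEs called below held 22.8 to 37.4% of the counts of the region in set C, 13.1 to 18.3% in set D, 6.69 to 10.2% in set B and 2.42 to 6.14% in set A. Without these 8 TEs the region summed to 2440 ± 528 CPM in set C, 2549 ± 348 in set A, 2308 ± 381 in set B and 2402 ± 238 in set D. These 8 TEs were chosen for differing between sets and took their largest share in set C. Leaving them out was therefore bound to lower set C most, and the sums without them are a description only.

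A TE was counted as seen in a set when at least 2 of its 3 libraries had a count. Such TEs of the region numbered 95 in set C, 81 in set B, 58 in set A and 56 in set D. Over all TEs the numbers were 1549 in set C, 1508 in set B, 1327 in set A and 1358 in set D. Of the 135 TEs of the region seen in at least 1 set, 36 (26.7%) were seen in all 4, against 49.1% of the 2046 TEs seen anywhere in the genome. Seen in set C alone were 38 (28.1%), against 11.5% of all TEs seen. Set B alone had 19 such TEs (14.1%), also above its share of all TEs seen (8.36%). Set D alone had 4 (2.96%, against 4.45%) and set A alone 3 (2.22%, against 3.37%). Of the 38 TEs of set C, 20 had no count in any of the other 9 libraries, and these 20 gave 49, 74 and 55 counts in C1, C2 and C3. Counts in every library of set C with 0 in every library of set B were found for 14 TEs of the region, of 69 TEs in all, and the same against set A for 12 of 83. The reverse, counts in every library of set B or A with 0 throughout set C, was found for 3 TEs of the region of 31 in all and for 2 of 14. Against set A the region thus made up 14.5% of such TEs in one direction and 14.3% in the other, and against set B 20.3% and 9.68%.

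The quasi-likelihood F test of edgeR was run over all 753 TEs that passed the filter. A call needed a Benjamini-Hochberg adjusted p under 0.05 and a log2 fold change of at least 1 in size. Of the 26 tested TEs of the region, 8 were called in at least 1 pair of sets, against 55 of all 753 (7.30%). AT4TE09080, AT4TE15420, AT4TE18640 and AT4TE20400 passed the filter through their level in set C, and AT4TE18635 through sets C and D together. For AT4TE17660 every library of sets C and D reached the filter's level and none of sets A and B did. TEs that pass in this way had to differ between sets, so the shares called among the TEs tested are a description only. For AT4TE18500, 2 libraries in each of sets B, C and D reached that level and none of set A did. Of the tested TEs on chromosome 4 with lower numbers, 0 of 10 were called in any pair, and of those with higher numbers 3 of 69.

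**Figure D2:**
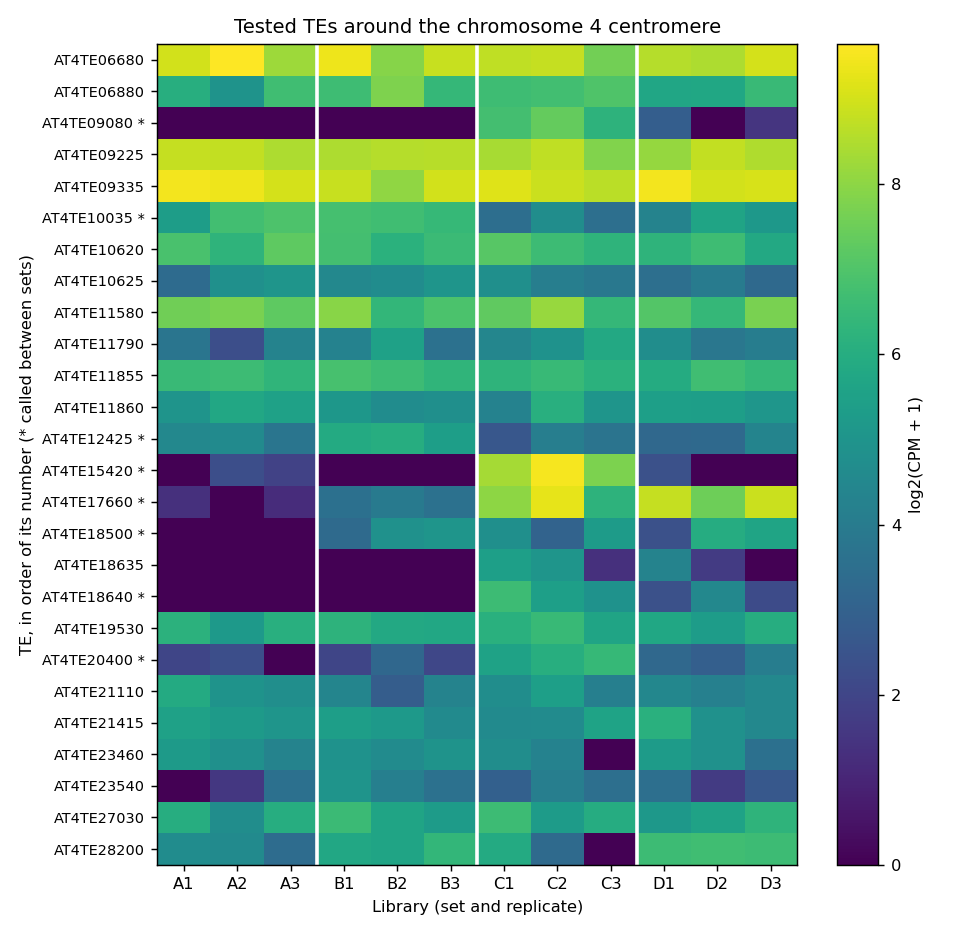
Level of each of the 26 tested TEs of the region, as log2(CPM + 1), in the 12 libraries, with TEs in the order of their numbers and an asterisk on the 8 called in at least 1 pair of sets. AT4TE09080, AT4TE15420 and AT4TE18640 are bright in set C and at or near 0 in sets A and B, while the most counted TE, AT4TE09335, is high in all libraries.

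Between sets C and B, that is *h1.1 h1.2* against Col-0 by title and *cdca7α cdca7β* against *h1.1 h1.2* by table names, 5 TEs of the region were called higher and 2 lower in set C (26.9% of 26). Over all TEs tested 4.52% were called, 24 higher (3.19%) and 10 lower (1.33%). The median log2 fold change was 0.15 over the tested TEs of the region and -0.15 over all TEs tested. Between sets C and A, *h1.1 h1.2* against *cdca7α cdca7β* by title and *cdca7α cdca7β* against Col-0 by table names, the region had 6 calls higher in set C and 1 lower (26.9%). Over all TEs 5.31% were called, 36 higher (4.78%) and 4 lower (0.531%). The medians were 0.08 and -0.17. Both comparisons use set C, and their calls are not independent.

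AT4TE15420 had 194, 398 and 141 counts in set C. It had 0, 2 and 2 counts in set A, none in set B, and 2, 0 and 0 in set D. Every library of set C was far above every other library, with none of the 9 others over 2 counts. The mean level was 426 ± 273 CPM in set C and 2.23 ± 2.03 CPM in set A. It was called higher in set C than in set A, with a log2 fold change of 7.51 (SE 0.743, edgeR adjusted p = 1.45e-05) and a ratio of pooled levels of 193 (95% counting interval 75.0 to 710). Against set B, where a count of 0 was replaced by 3 counts over the set, it was at least 305-fold higher (edgeR adjusted p = 5.94e-06). It was also called lower in set D than in set C, by title the quadruple mutant against *h1.1 h1.2* and by table names against *cdca7α cdca7β*, with a log2 fold change of -8.10 (SE 0.810, edgeR adjusted p = 1.66e-05).

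AT4TE17660 was the one TE of the region called higher in sets C and D than in each of sets A and B. It had 152, 336 and 49 counts in set C and 208, 83 and 263 in set D, against 1, 0 and 1 in set A and 7, 14 and 7 in set B. The lowest library of C or D exceeded the highest of A or B, and sets A and B did not overlap each other either. The mean level was 317 ± 278 CPM in set C, 365 ± 159 in set D, 12.2 ± 2.16 in set B and 0.970 ± 0.845 in set A. Against set A, edgeR's log2 fold change was 7.97 in set C (SE 0.900, adjusted p = 2.05e-05) and 8.18 in set D (SE 0.898, adjusted p = 1.87e-05). Against set B it was 4.66 in set C (SE 0.646, adjusted p = 0.000217) and 4.86 in set D (SE 0.650, adjusted p = 0.000787). Sets D and C differed by 0.21 on the log2 scale, with a 95% interval of -0.79 to 1.21. The difference between sets A and B did not pass the test, at -3.32 (SE 1.16, edgeR adjusted p = 0.237).

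AT4TE09080 had 63, 88 and 49 counts in set C, none in the 6 libraries of sets A and B, and 3, 0 and 1 in set D. Set C stood apart from all other libraries. It was at least 70.1-fold higher than in set A (edgeR adjusted p = 0.000141) and at least 83.3-fold higher than in set B (adjusted p = 0.000161). In set D it was called lower than in set C, with a log2 fold change of -5.30 (SE 0.766, edgeR adjusted p = 0.00226), a pooled ratio of C over D of 41.5 (95% counting interval 16.0 to 154).

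AT4TE18640 had 58, 23 and 19 counts in set C, none in sets A and B, and 2, 10 and 2 in set D. It was at least 35.1-fold higher in set C than in set A (edgeR adjusted p = 0.00238) and at least 41.6-fold higher than in set B (adjusted p = 0.00204). Set D lay between and did not overlap any set, but no comparison with it passed the test, and D minus C was -2.52 (SE 0.820, edgeR adjusted p = 0.184). AT4TE18635, its neighbour by number, had 25, 17 and 1 counts in set C, 9, 1 and 0 in set D, and none in sets A and B. It was tested but not called (log2 fold change of C minus A 6.95, SE 2.00, edgeR adjusted p = 0.0746), and library C3 overlapped set D.

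AT4TE20400 had 27, 35 and 58 counts in set C, 2, 2 and 0 in set A, 2, 8 and 2 in set B, and 4, 3 and 9 in set D. All 3 libraries of set C exceeded the other 9. It was called higher in set C than in set A, with a log2 fold change of 4.80 (SE 0.771, edgeR adjusted p = 0.000552), and than in set B, with 3.64 (SE 0.672, adjusted p = 0.00211). It was called lower in set D than in set C, at -2.62 (SE 0.644, edgeR adjusted p = 0.0296), but this call was lost without C2, without C3 and without any 1 of the libraries of set D, with adjusted p up to 0.165 in these fits.

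AT4TE10035 went the other way. It had 6, 14 and 7 counts in set C, against 26, 53 and 91 in set A and 72, 98 and 55 in set B, and set D had 9, 22 and 19. Set C was below every library of sets A and B and overlapped set D. It was called lower in set C than in set A, with a log2 fold change of -2.54 (SE 0.503, edgeR adjusted p = 0.00352), and than in set B, with -2.69 (SE 0.501, adjusted p = 0.00217). In CPM, set D was below every library of set B and overlapped set A. It did not pass the test, at -1.56 against set B (SE 0.467, edgeR adjusted p = 0.205). With C2 as the only library of set C, a fit with less power, the log2 fold changes of AT4TE10035 were -1.79 against set A and -1.95 against set B.

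AT4TE12425 had 38, 60 and 26 counts in set B and fewer in all other libraries, with 14, 12 and 9 in set A, 3, 9 and 8 in set C, and 4, 4 and 11 in set D. Set B overlapped none of the others. It was called lower in set C than in set B, with a log2 fold change of -2.25 (SE 0.549, edgeR adjusted p = 0.0190), a call lost without B1, B2, C1 or C3 (adjusted p up to 0.100). Set A minus set B, at -1.50 (SE 0.520, edgeR adjusted p = 0.237), and set D minus set B, at -2.10 (SE 0.552, adjusted p = 0.145), did not pass. With C2 as the only library of set C, the difference of set C from set B was -1.70 on the log2 scale.

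**Figure D3:**
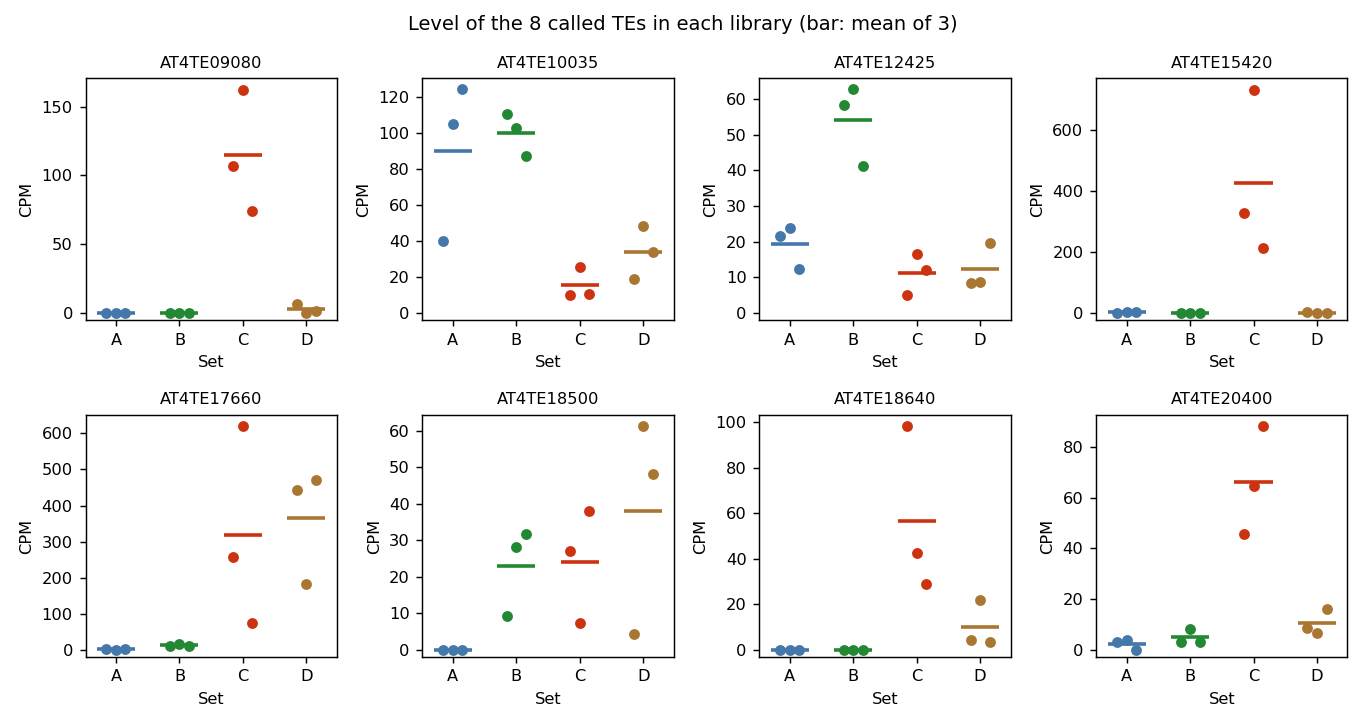
Level in CPM of the 8 TEs called in at least 1 pair of sets, 1 point per library with the mean of 3 as a bar, each panel on its own linear scale. AT4TE15420 and AT4TE09080 are high in set C alone, AT4TE17660 in sets C and D, AT4TE18500 is at 0 in set A alone, and AT4TE10035 is low in sets C and D.

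Between sets A and B, *cdca7α cdca7β* against Col-0 by title and, with its sign reversed, *h1.1 h1.2* against Col-0 by table names, 1 TE of the region was called, AT4TE18500, lower in set A (3.85% of 26). Over all TEs 1.86% were called, none higher and 14 lower in set A. At an unadjusted edgeR p under 0.05, 2 of the region were higher and 6 lower in set A, against 81 of all 753 TEs tested (10.8%) in either direction. AT4TE18500 had no count in set A, 6, 27 and 20 in set B, 16, 4 and 25 in set C, and 2, 28 and 27 in set D. Set A was the only set at 0, and the other sets overlapped one another. It was at least 14.9-fold lower in set A than in set B (edgeR adjusted p = 0.0304), a call that 7 of 12 fits without 1 library lost (adjusted p up to 0.0969). It was at least 15.8-fold higher in set C (edgeR adjusted p = 0.0123) and at least 24.1-fold higher in set D (adjusted p = 0.00954) than in set A. In fits of only the libraries compared, AT4TE18500 did not pass the filter and these calls could not be made.

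For the quadruple mutant, set D, the calls were few. Against set B, Col-0 by title and *h1.1 h1.2* by table names, 1 TE of the region was called higher, AT4TE17660 (3.85% of 26), and it was the only TE called of all 753 (0.133%). Against set A, *cdca7α cdca7β* by title and Col-0 by table names, AT4TE17660 and AT4TE18500 were called higher and none lower (7.69%), and over all TEs 2.39% were called, 17 higher (2.26%) and 1 lower (0.133%). Against set C, 3 TEs were called lower and none higher in set D (11.5%), namely AT4TE09080, AT4TE15420 and AT4TE20400, and over all TEs 3.19% were called, 5 higher (0.664%) and 19 lower (2.52%). At an unadjusted edgeR p under 0.05, 2 TEs of the region were higher and 4 lower in set D than in set C. Over all TEs tested it was 81 (10.8%) in either direction. The median log2 fold change of set D against set C was -0.32 over the tested TEs of the region and 0.11 over all TEs tested.

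By title, the interaction asks whether the effect of CDCA7 loss differed with and without H1, as set D minus C against set A minus B. It was called for 2 TEs of the region (7.69%), AT4TE15420 with a negative and AT4TE18500 with a positive value, and both calls were lost without A2 and without A3. The call on AT4TE18500 was lost in 9 refits in all, 1 of them with the replicate number as a block. The interaction was called for 3.32% of all TEs tested, 20 positive (2.66%) and 5 negative (0.664%). By table names, the interaction was called by edgeR for none of the 26 and for 6 of all TEs tested (0.797%). At an unadjusted edgeR p under 0.05, 1 of the 26 was positive and 6 were negative. The share of all TEs at that level was not taken, so these counts have no background beside them. TEs at 0 in both sets A and B, such as AT4TE09080, have no bounded value there and were out of reach of this test.

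The 3 most counted TEs of the region were not called in any pair. AT4TE09335, with 3765 counts in all, was at 634 ± 104 CPM in set A, 407 ± 126 in set B, 481 ± 85.3 in set C and 585 ± 112 in set D. AT4TE06680, with 3147 counts, was at 535 ± 252, 456 ± 216, 351 ± 140 and 416 ± 90.1 CPM in sets A to D. AT4TE09225, with 2698 counts, was at 408 ± 53.1, 372 ± 18.9, 328 ± 101 and 356 ± 80.3 CPM. The differences between set means of AT4TE06680 and AT4TE09225 were within the spread of the libraries. AT4TE09335 was higher in every library of set A than of set B, with a log2 fold change of 0.64 (95% interval 0.15 to 1.14, edgeR adjusted p = 0.351). AT4TE11580, AT4TE06880, AT4TE10620 and AT4TE11855, with 643 to 1173 counts each, were also not called. For AT4TE11855 the interval of the difference of set C from set A ran from -0.77 to 0.41 on the log2 scale, and that of AT4TE11580 from -0.92 to 0.80.

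AT4TE28200, picked out once its values were known, was even among the libraries of set D and uneven in set C. It had 45, 47 and 54 counts in set D, 35, 47 and 52 in set B, 16, 12 and 7 in set A, and 35, 5 and 0 in set C. Set A lay below sets B and D in every library, and in CPM set C ran from 0 in C3 to a level in C1 above 2 of the 3 libraries of set B. No comparison passed the test, with edgeR adjusted p = 0.143 for D against A (log2 fold change 2.36, SE 0.754) and 0.201 for D against C.

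Where the counts lay along the region was described in 9 blocks of 2500 numbers. The blocks with the lowest numbers held most counts, with 4051 in numbers 6500 to 8999, 8568 in 9000 to 11499 and 2682 in 11500 to 13999. In numbers 14000 to 16499, 4.62% of 433 TEs had a count, the lowest share of the 9 blocks, and the counts there came almost entirely from set C. The mean of this block was 502 CPM in set C, 5.12 in set A, 3.49 in set B and 8.91 in set D, and most of it was AT4TE15420. In numbers 16500 to 18999, set C had 485 CPM and set D 430 CPM, against 6.09 in set A and 42.2 in set B, and most of both was AT4TE17660. Sets C and D overlapped there, with C3 at 204 CPM below every library of set D. In numbers 19000 to 21499, set C ran from 224 to 275 CPM and the other 9 libraries from 118 to 211 CPM, without overlap. Of this, AT4TE20400, called for its level in set C, gave 45.7, 64.6 and 88.1 CPM in C1, C2 and C3. In the other 9 libraries it gave at most 16.1 CPM. The block was at 231 CPM in C3, 88.1 of it AT4TE20400, and at 211 CPM in A1, 3.08 of it AT4TE20400. Without this TE the sets thus overlapped in this block. In the other 6 blocks at least 1 library of another set was level with or above a library of set C.

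**Figure D4:**
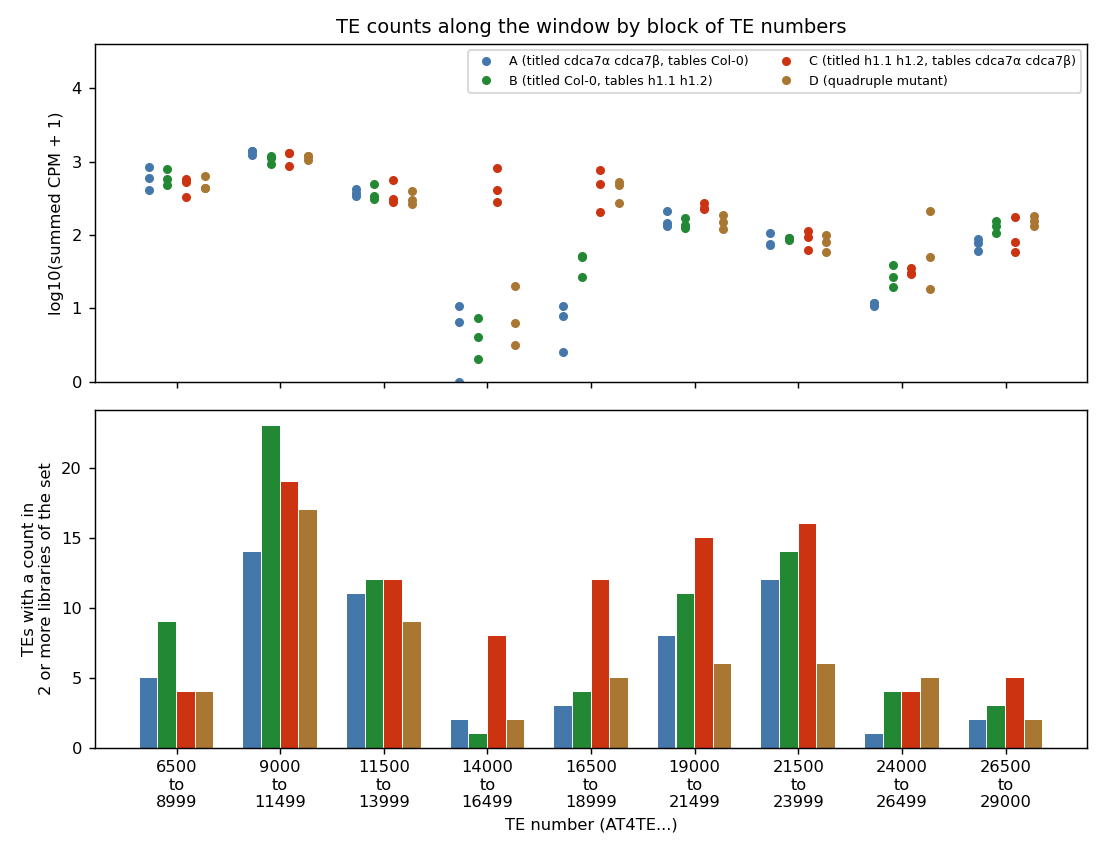
TE counts along the region in 9 blocks of 2500 TE numbers. The upper panel gives the summed level per library as log10(CPM + 1), and the lower panel gives the number of TEs with a count in 2 or more of the 3 libraries of each set. In numbers 14000 to 16499 the libraries of set C lie at 278 to 824 CPM and all others under 20, and in numbers 16500 to 18999 sets C and D lie above A and B.

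Where single TEs were seen, the same blocks differed between sets. In numbers 14000 to 16499, 8 TEs were seen in set C, against 2, 1 and 2 in sets A, B and D. In numbers 16500 to 18999 the numbers were 12 in set C, 3 in A, 4 in B and 5 in D. In numbers 9000 to 11499 set B had the most, with 23, against 14 in A, 19 in C and 17 in D. The 8 called TEs fell into blocks 2 to 6, numbers 9000 to 21499, with 2, 1, 1, 3 and 1 per block. These blocks also held most of the tested TEs, with 6, 5, 1, 4 and 4. Blocks 1, 7 and 9 had 2 tested TEs each, and block 8 had 0.

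Among TEs too low to be tested, those named here were picked once their values were known. AT4TE15820, which shares its counts with the pseudogene AT4G06566, had 4, 34 and 8 counts in set C and none elsewhere. AT4TE15030 had 14, 1 and 9 counts in set C and none elsewhere. AT4TE16080 had 7, 6 and 11 in set C, 6, 1 and 0 in set D, and none in sets A and B. All 3 are among the TEs already counted above for having counts in every library of set C and none in sets A and B. AT4TE09850 had 9, 16 and 8 counts in set C, 3, 1 and 4 in set D, and a single count in sets A and B together. AT4TE10335 ran the other way, with 7, 4 and 6 counts in set A, 2, 8 and 2 in set B, none in set C and a single one in set D. AT4TE25590 had 80 counts in library D3 and none in the other 11 libraries.

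Libraries C1 and C3 also stood apart in the photosynthesis genes, and the calls on set C were therefore read against C2, which did not. C2 had the highest counts of set C for AT4TE15420, AT4TE17660 and AT4TE09080, at 398, 336 and 88. For AT4TE18640 the highest was C1, at 58 against 23 in C2, and for AT4TE20400 it was C3, at 58 against 35. A fit with C2 as the only library of set C, added after the values were seen, assumes that C2 varies as the libraries of the other sets do. In it, 5 of the 7 calls between sets C and A remained, and AT4TE10035 and AT4TE18500 were lost. Of the 7 calls between sets C and B, 4 remained, those of AT4TE09080, AT4TE15420, AT4TE17660 and AT4TE18640. AT4TE20400, AT4TE10035 and AT4TE12425 were lost there, AT4TE20400 at an edgeR adjusted p of 0.0555. Between sets D and C, AT4TE09080 and AT4TE15420 remained, AT4TE20400 was lost and AT4TE28200 was added. In C2, AT4TE10035 was at 25.8 CPM, below every library of set A (40.1 to 125) and set B (87.4 to 110). AT4TE12425 was at 16.6 CPM in C2, below every library of set B (41.3 to 62.8). With 1 library in set C the fit has less power, so a lost call does not show that the difference came from C1 and C3. In whole seedlings, more RNA per cell and more cells with the RNA cannot be told apart.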

How the data were processed

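The authors trimmed reads (Trim Galore 0.6.7), aligned them to TAIR10 (STAR 2.7.11a), retained only reads that mapped once, and counted them on genes and TEs with HTSeq 0.13.5. The deposited values are raw counts per gene or TE, 1 table of each kind per library. The counting's strand option and the TE annotation release are not given in the sources used here. The 5 summary lines of each table were left out of library sizes and tests. In the TE tables these lines held 99.5 to 99.6% of the reads.

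TEs were tested in edgeR 4.0.16 (R 4.3.3, glmQLFit and glmQLFTest) in 1 fit of 12 libraries with set means. Library sizes and TMM factors came from the gene tables, and filterByExpr set the filter. p-values were Benjamini-Hochberg adjusted over the 753 TEs tested. Standard errors came from each log2 fold change divided by the root of its F statistic. Intervals of log2 fold changes ran 1.96 standard errors to each side. This normal approximation is too narrow for so few libraries, and such an interval can leave out 0 where the test does not pass. Folds against sets at 0 used 3 counts over the set in place of 0, and counting intervals were exact binomial. On simulated counts with 200 changed TEs, the test was checked for recovery before use. All TEs were simulated with the same fixed spread, so the check does not give recovery at the spread of these libraries. Alternatives were DESeq2 1.42.0, its size factors, library sizes from TE counts, no filter, a minimum of 10 summed counts, the replicate number as a block, only the libraries compared, genotypes by table names, and each library left out. A fit with C2 as the only library of set C, on the same TEs and scaling factors, was added after the values were seen. Replicate numbers come from the titles. Deviations of same-numbered libraries correlated from -0.202 to 0.251, with 3 of 18 pairs over 0.1, so numbers were not taken as pairs.

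Named TEs were those called in any pair or in the interaction, the 10 most counted, and the first and last of the region. The region, the gene lists and this rule were chosen with earlier results of these data known. Summaries used Python 3.11.15, pandas 2.3.3, scipy 1.17.1 and matplotlib 3.10.9. Positions and families of TEs, and DNA methylation data, were not analysed here.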

Additional observations from a re-analysis of the deposited data

Results flagged for a closer look

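By title, the effect of CDCA7 loss with and without H1 differed by the interaction test for 2 TEs of the region. For AT4TE15420 the interaction was -11.62 on the log2 scale (SE 2.23, edgeR adjusted p = 0.00579). Its counts were 141 to 398 in the set titled *h1.1 h1.2* and at most 2 in each of the other 9 libraries, and the size of the value rests on a set with 0 counts throughout. For AT4TE18500 it was 7.49 (SE 1.81, edgeR adjusted p = 0.0358), with 0 counts in the 3 libraries titled *cdca7α cdca7β* and 2 to 28 in the others. Both calls were lost without A2 and without A3 (replicates 2 and 3 titled *cdca7α cdca7β*), AT4TE15420 at adjusted p 0.0599 and 0.0572. That of AT4TE18500 was lost in 9 refits in all. By table names neither was called.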

How the results depend on the processing

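The 23 called values were refitted under every setting other than the table names, and of the 451 refits that tested the TE, 417 kept the call, 34 lost it and 0 reversed. The lost calls were those of AT4TE12425 (C against B, 5 refits), AT4TE10035 (C against A and C against B, 1 each), AT4TE15420 (interaction, 2, without A2 or A3, adjusted p 0.0572 and 0.0599), AT4TE18500 (interaction, 9, adjusted p 0.0512 to 0.0816, A against B, 7, and C against A, 1) and AT4TE20400 (D against C, 7, and C against B, 1). With C2 as the only library of set C, an alternative added after the values were seen, the calls were 4 for C against B, 5 for C against A, 3 for D against C and 3 for the interaction. Without a filter on low counts the calls in the region were 2 for A against B, 12 for C against B and 3 for D against B. They were 5 for D against A, 6 for D against C, 12 for C against A and 4 for the interaction. More TEs were tested in that fit, and 6 TEs not tested otherwise were called, AT4TE25590 among them on 1 library. For the refits without a filter, with C2 only, with 1 library left out or with the block, the share called of all TEs is not given. Their counts therefore describe the processing only. With genotypes by table names the counts became 7 for *cdca7α cdca7β* against Col-0, 1 for *h1.1 h1.2* against Col-0 and 2 for the quadruple mutant against Col-0. They were 1 for the quadruple mutant against *h1.1 h1.2* and 0 for the interaction. The shares called of all TEs tested were, in the same order, 5.31, 1.86, 2.39, 0.133 and 0.797%. With only the libraries compared, A against B gave 0, since AT4TE18500 did not pass the filter. Leaving out 1 library gave 0 to 1 for A against B, 6 to 8 for C against B, 1 for D against B, 2 to 3 for D against A, 2 to 4 for D against C, 7 to 8 for C against A and 0 to 3 for the interaction. With the replicate number as a block, D against C gave 2 calls, losing AT4TE20400, and C against A and C against B gave 8 each, adding AT4TE18635. In the interaction the block exchanged AT4TE18500 for AT4TE28200, and it changed no other call. Replicate numbers were no pairs, since 5 of 12 libraries correlated best with their own number. DESeq2 also called AT4TE18635, AT4TE09850 and, in the interaction, AT4TE28200. Library sizes from TE counts moved the median of all TEs by 0.16 for C against B, 0.18 for C against A and -0.11 for D against C. Without its most counted TE, the region summed to 2029, 2095, 2989 and 2291 CPM in sets A to D. In all, 2597 of 2890 TEs were at 0, and 0 counts does not show absence.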
